A study of Mus musculus with 2 samples.

Results

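The 196 microRNA (miRNA) loci numbered Mir6896 to Mir7093 were described in the left cerebral cortex of aged mice. They were chosen by symbol alone: every row of the 2 count tables whose GENCODE M21 symbol is Mir with a number in that range was kept, with or without reads, which gave 196 of 2202 annotated miRNA genes. Mir6973a, Mir6973b and Mir7036b, whose symbols carry a letter, did not match and are counted with the other loci. The tissue came from B6CASTF1/J mice, a first-generation cross between C57BL/6J and CAST/EiJ, untreated as far as the labels say and 18 to 20 months old. RNA under 30 nt was sequenced in 2 libraries that form a single group, so no condition was compared. They carry biological replicate numbers 1 and 2 in the labels, which nevertheless point both to the same donor record, and they give the sex as male in one field and female in another. The p-values given here measure the spread or counting noise between these libraries, which may be technical.

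A mirtron is a short intron whose spliced lariat, once debranched, folds into a hairpin that Dicer can cut, so that splicing takes the place of the Drosha cut of a canonical miRNA. In a tailed mirtron the splice site gives only one end of the hairpin, and the rest of the intron hangs from the other end as a tail that must be trimmed. In the 5′-tailed type the hairpin lies against the 3′ splice site. Such hairpins tend to have a G-rich 5′ arm and, because the 3′ arm overlaps the pyrimidine tract of the intron, a 3′ arm of C and U that ends in AG.

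Hairpin sequences from RefSeq (GRCm38.p6) matched 175 of the 196 loci, all 175 at the same coordinates as in GENCODE M21. The 4 shown belong to loci among the 6 with the most reads, and they give both main layouts found in the set. They are written 5′ to 3′ in RNA letters, with the last AG, the acceptor dinucleotide of the intron, in capitals. The first pair spans a whole intron and the other pair lies against its 3′ end behind a tail.
Mir7080: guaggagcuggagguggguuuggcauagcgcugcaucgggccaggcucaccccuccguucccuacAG
Mir6944: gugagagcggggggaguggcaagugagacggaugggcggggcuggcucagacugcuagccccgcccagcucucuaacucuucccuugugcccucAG
Mir7044: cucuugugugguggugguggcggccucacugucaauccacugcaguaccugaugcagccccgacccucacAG
Mir7066: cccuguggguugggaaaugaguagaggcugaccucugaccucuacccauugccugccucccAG
Mir7080 lies at chr8:123130106-123130172, plus strand (mm10), and fills a 67-base intron of Cpne7, which encodes a copine, a calcium-dependent membrane-binding protein; a transcript annotated as a retained intron also covers it. Mir6944 lies at chr13:55477681-55477776, minus strand, and fills a 96-base intron of Dbn1, the gene of the actin-binding protein drebrin of dendritic spines. Mir7044 lies at chr6:118085192-118085263, plus strand, 633 bases into a 705-base intron of Rasgef1a, an exchange factor for small GTPases, and it overlaps a coding exon of 1 other Rasgef1a transcript. Mir7066 lies at chr8:70102524-70102586, minus strand, 1357 bases into a 1420-base intron of Ncan, which encodes the brain matrix proteoglycan neurocan.

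All 196 loci lay on the strand of a protein-coding gene that contains them. Among the other 967 loci with a Mir number, 49.9% did. The hairpin's 3′ end fell on the very last base of an annotated intron at 183 loci (93.4%), against 2.38% of the other Mir loci. When a distance of up to 5 bases was allowed at each end, 15 loci spanned a whole intron, 169 matched only the 3′ end, 3 matched only the 5′ end and 9 matched neither. By position 184 loci (93.9%) were thus mirtron-like, most of them of the 5′-tailed layout. The entries are labelled as predicted mirtron-like, so this position may follow from how they were annotated. It describes the set and does not test the label. Of the 169 with a tail, 42 had fewer than 100 intron bases in front of the hairpin and 127 had 100 or more, with a median of 512 bases. The longest tail, 36205 bases, stood before Mir6899.

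**Figure D1:**
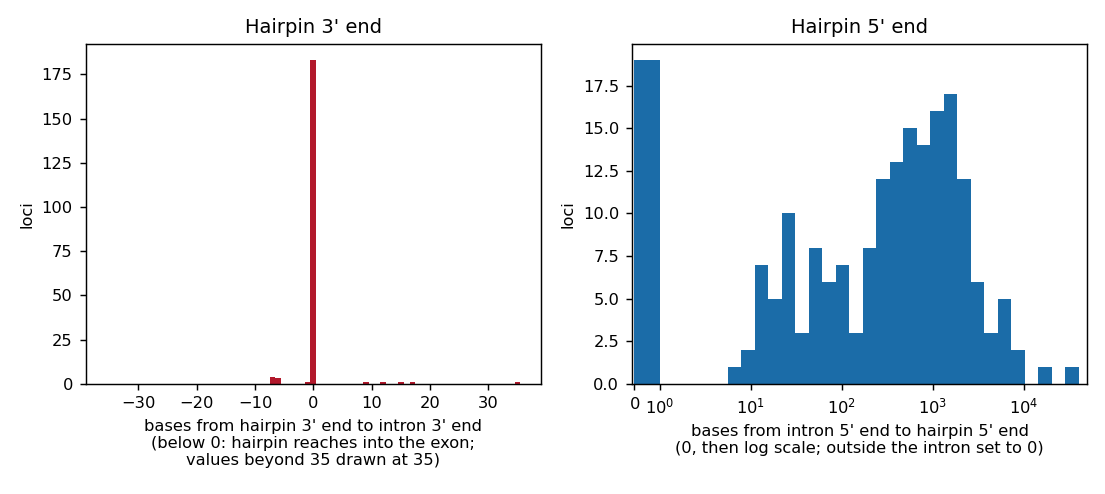
Distance of each hairpin's ends from the ends of its nearest intron, in bases, as counts of the 196 loci. The 3′ end sits on the last intron base at 183 loci, while the 5′ end is on the first intron base at 17; hairpins that match only the 3′ end start a median of 512 bases into the intron.

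The exceptions were of a few kinds. At 7 loci the hairpin ran 6 or 7 bases past the intron into the next exon: Mir6901, Mir6903, Mir6904, Mir6914, Mir6925, Mir6950 and Mir7029. None of these had more than 9 reads over both libraries. Mir6936, Mir6927 and Mir6977 began on the first intron base and stopped 12 to 17 bases short of its end. Mir7025, in the growth factor receptor gene Pdgfra, crossed an exon boundary at its 5′ end and had no read. In all, 13 loci overlapped a coding exon of at least 1 transcript, a further 5 an untranslated exon, and 22 an exon of a transcript annotated as a retained intron. None overlapped another miRNA gene, and no read was counted on the opposite strand of any of them.

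The hairpins were short and rich in G and C. Their median length was 66 bases (52 to 137), against 84 over the other Mir loci, and their median GC content was 57.3% (25.3 to 81.5), against 49.2%. The lowest GC content belonged to Mir6951 and the highest to Mir6936. The last bases were AG in 184 hairpins (93.9%) and in 8.58% of the other Mir loci, and the first were GU in 30 (15.3%) and 6.83%. These letters were read at the hairpin ends on the locus's own strand. Predicted folding energy per 100 bases was close to that of the other loci, with a median of -38.9 kcal/mol against -41.1. Over the whole hairpin, which was shorter in the range, the median was -26.2 kcal/mol against -34.6. Most of these traits were not particular to the range. In 41 other Mir loci that end within 5 bases of an intron's 3′ end, the median length was 67 bases and the median GC content 56.7%. GU came first in 17.1% of these 41 and AG last in 56.1%. In both sets the first 20 bases were 45% G at the median, and the last 20 were 70% C and U.

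RefSeq named 172 5p and 172 3p arms, which are the mature miRNAs annotated on each side of the hairpin. The 3p arms were 71.7% C and U at the median, against 54.5% in 528 3p arms of other Mir loci, and 107 of the 172 reached 70% or more. They ended in AG in 136 cases (79.1%), against 11.0% elsewhere. The 5p arms were 43.7% G at the median, against 27.3% in 524 other 5p arms, and 129 (75.0%) held the letters GGG on their own strand, against 28.6%. The ends had a common layout. Of the 3p arms, 134 stopped on the last intron base and 161 within 2 bases of it, while 137 of the 5p arms began 5 bases into the hairpin. The count tables give reads per hairpin, so which arm the reads came from was not measured.

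**Figure D2:**
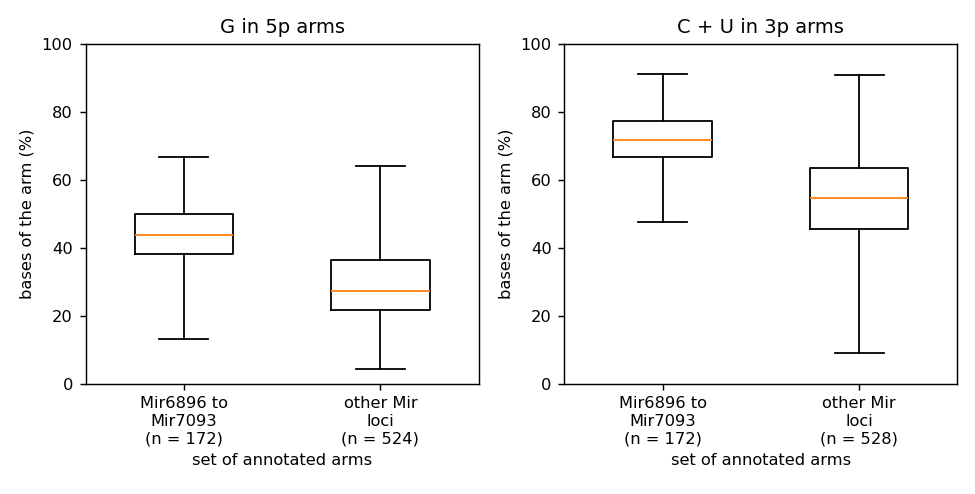
Share of G in annotated 5p arms (left) and of C and U in annotated 3p arms (right), in percent of the arm's bases. Boxes show the quartiles with the median line, whiskers the full range. The medians are 43.7% G against 27.3%, and 71.7% C and U against 54.5%.

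A miRNA recognises its targets mainly through its seed, bases 2 to 8 of the mature arm. The 344 arms held 317 different seeds, so most loci had a seed of their own. Only 23 seeds occurred in more than 1 locus, together involving 49 loci, and no seed occurred in more than 3. Of the 317 seeds, 43 were also carried by an annotated miRNA that is not among the 196 loci. The example shows a set of 3p arms with a common seed that is found in no other annotated miRNA. The seed is in capitals.
miR-7018-3p: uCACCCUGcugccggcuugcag
miR-7023-3p: uCACCCUGucugcgccccucag
miR-7068-3p: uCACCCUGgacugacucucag
Their hairpins had few reads. Mir7023 had 1 read in replicate 1 and 10 in replicate 2, Mir7068 had 3 and 7, and Mir7018 had 0 and 2. A seed of the range also matched that of miR-218-5p, an miRNA of motor and other neurons.
miR-7002-3p: uUGUGCUUccccuugccag
miR-218-5p: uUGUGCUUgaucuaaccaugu
Mir7002 had 1 read in all. The same miR-218-5p sequence is annotated at both Mir218-1 and Mir218-2. Mir218-1 had 43 reads in replicate 1 and 112 in replicate 2, and Mir218-2 had 300 and 609. Reads that map to both stand under neither gene, so these counts do not give the level of miR-218-5p.

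Reads were found at most of the loci but at low numbers. Of the 196 loci, 156 (79.6%) had at least 1 read on their strand in either library, 111 had a read in both, 66 (33.7%) had 10 or more reads in total and 24 had 10 or more in each library. The median was 6 reads over both libraries. A read was found at 123 loci in replicate 1 and at 144 in replicate 2, the deeper library, with 2381663 and 4436398 sense reads at miRNA genes. All loci together had 1178 reads in replicate 1 and 3019 in replicate 2. Scaled to 1000000 sense miRNA reads per library (CPM), this was 495 CPM (95% exact binomial interval 467 to 524) and 681 CPM (656 to 705), a mean of 588 ± 131 CPM (SD, n = 2). The intervals do not overlap, and they cover counting error only, since reads copied by PCR are not independent molecules.

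Other loci with late numbers had reads less frequently. Of 274 other loci numbered 5000 or more, 96 had a read and 37 (13.5%) had 10 or more. Over all other Mir loci these shares were 53.3% and 39.3%. Reads that map to several places stand under no gene, and a word of 20 bases was shared with another annotated transcript by 6.12% of the 196 loci and by 35.6% of the other Mir loci. Among loci without such a word, a read was found at 147 of 184 in the range, 78 of 210 with other late numbers and 374 of 623 over the other Mir loci. A further set was defined by position and not by number. Of 41 other Mir loci that end within 5 bases of an intron's 3′ end, 32 (78.0%) had a read and 22 (53.7%) had 10 or more. The 41 include 20 of the late-numbered loci and the 5 reported mirtrons described below, which all had 10 or more reads. This last set was chosen after the positions were seen, and none of these shares was tested against another.

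**Figure D3:**
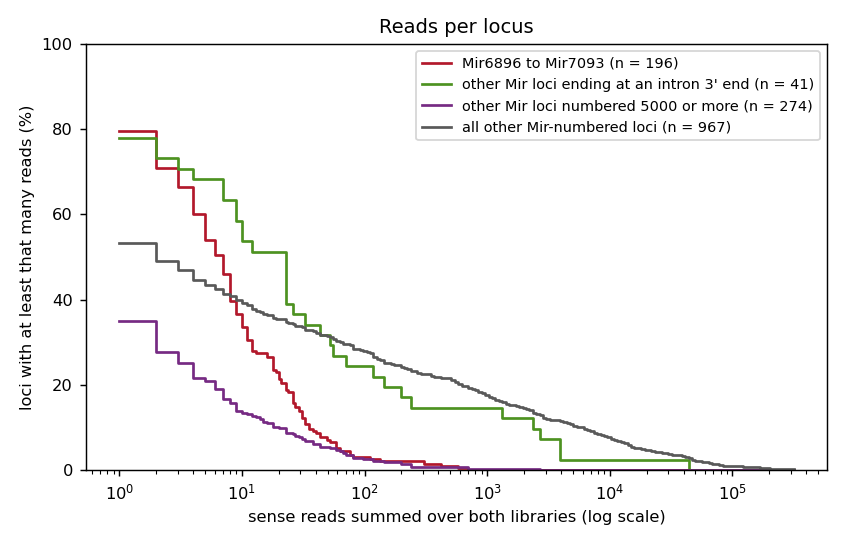
Share of loci, in percent, with at least the number of sense reads on the horizontal axis (log scale, both libraries summed), for the 196 loci and 3 sets of other Mir loci. The curve of the 196 loci starts at 79.6%, above the 53.3% of all other Mir loci, and lies below it at 10 reads (33.7% against 39.3%).

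By the mean of the 2 libraries no locus reached 100 CPM, and 9 reached 10 CPM. The top of the list held much of the signal: the 4 most abundant loci took 40.7% of the reads of the range in replicate 1 and 47.8% in replicate 2, and the top 30 took 73.8% and 77.1%. Mir7080, in Cpne7, had 160 reads in replicate 1 and 500 in replicate 2, which was 67.2 and 113 CPM and a mean of 89.9 ± 32.2 CPM (SD, n = 2). It ranked 208th of all 2202 genes by mean CPM. Mir7047 had 120 and 440 reads, a mean of 74.8 ± 34.5 CPM. Mir7044, in Rasgef1a, had 129 and 275 reads, a mean of 58.1 ± 5.53 CPM, and Mir6944, in Dbn1, had 70 and 227, a mean of 40.3 ± 15.4 CPM. Mir7080 was first in both libraries, while Mir7047 and Mir7044 changed places between them. The means of Mir7080 and Mir7047, and of Mir7047 and Mir7044, differed by less than the larger SD of each pair, while Mir7044 lay above Mir6944 in both libraries. Mir7047 shares a word of 20 bases with the transcript of Fam71e1, and reads within that word would count as multimapping.

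A step down led to loci of 10 to 20 CPM. Mir6982, in Camk2a, the calcium- and calmodulin-dependent kinase of excitatory synapses, had 56 reads in replicate 1 and 73 in replicate 2 (20.0 ± 4.99 CPM). It lay above all lower-ranked loci in replicate 1 but below Mir7066 in replicate 2, and unlike the 4 loci before it had its higher CPM in replicate 1. Mir7066, in Ncan, had 25 and 82 reads (14.5 ± 5.65 CPM). Mir7052, in the deubiquitinase gene Josd2, had 24 and 52 (10.9 ± 1.16 CPM), and Mir7031, in the cytokine signalling adaptor gene Sh2b3, had 26 and 45 (10.5 ± 0.547 CPM). Mir7019, in Pink1, a mitochondrial kinase gene mutated in inherited Parkinson disease, had 18 and 57 (10.2 ± 3.74 CPM). The last 3 were ordered differently in each library, so they were not separated beyond their spread.

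**Figure D4:**
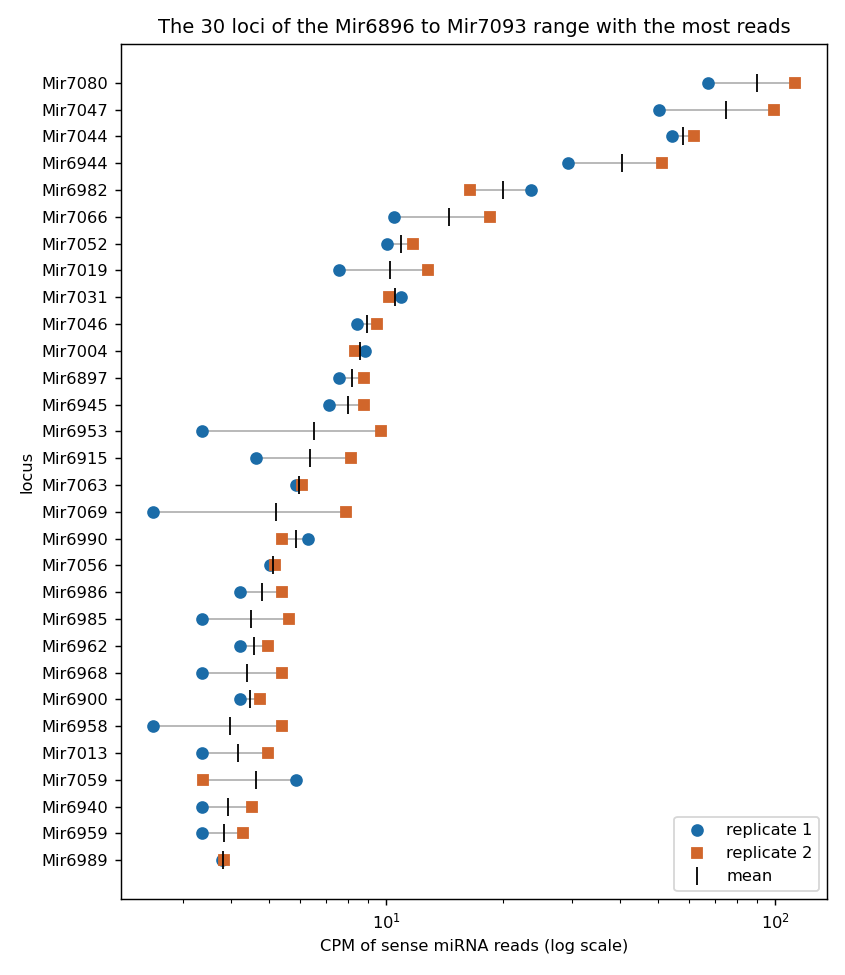
Level of the 30 loci with the most reads, in CPM of sense miRNA reads on a log axis. Circles are replicate 1, squares replicate 2 and ticks the mean. Mir7080, Mir7047, Mir7044 and Mir6944 stand above 29 CPM in both libraries, and all loci from Mir7066 down stay below 19 CPM.

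The loci below 10 CPM lay in genes of varied function. Mir7046, in the prenylated Rab acceptor gene Rabac1, had 20 reads in replicate 1 and 42 in replicate 2, and Mir7004, in the lipid flippase gene Atp9a, had 21 and 37. Mir6897 had 18 and 39 in Uggt1, which senses misfolded glycoproteins, and Mir6945 had 17 and 39 in Pdlim7, a scaffold of the actin cytoskeleton. The means of these 4 lay between 7.96 and 8.93 CPM with an SD of 1.17 or less. Mir6953, in Grina, which encodes a glutamate receptor-associated membrane protein, had 8 and 43 reads, and Mir6915, in Ankrd52, had 11 and 36. Mir7063, in the endocytic adaptor gene Ap2a2, had 14 and 27 reads, nearly equal in CPM. Mir7069, in the phenylalanyl-tRNA synthetase gene Farsa, had 6 and 35. Mir6990, in the nuclear receptor gene Esrra, had 15 and 24, and Mir7056, in Ptpn5, the striatum-enriched tyrosine phosphatase, had 12 and 23.

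The rest of the top 30 had between 26 and 34 reads in all. Mir6986 (10 and 24 reads) lies in Rce1, a protease of prenylated proteins, Mir6985 (8 and 25) in the cofilin phosphatase gene Ssh3 and Mir6962 (10 and 22) in the activin receptor gene Acvr1b. Mir6968 (8 and 24) lies in the Polycomb-associated gene Phf1 and Mir6900 (10 and 21) in Ndufa10 of respiratory complex I. Mir6958 (6 and 24) fills an intron of 73 bases in Dennd6b. Mir7013 (8 and 22) lies in the lipid kinase gene Pi4kb, Mir7059 (14 and 15) in the lysosomal gene Cln3, Mir6940 (8 and 20) in Cep170b, Mir6959 (8 and 19) in Sbf1 and Mir6989 (9 and 17) in the kinase gene Map4k2. At such numbers a handful of reads sets the order.

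Below the top 30, 36 loci had 10 to 26 reads in all, with a median of 17, and only Mir7062 of these was without a read in a library. A further 90 had 1 to 9 reads, with a median of 4: 12 of them had reads in replicate 1 alone, never more than 4, and 32 in replicate 2 alone, up to 9. The remaining 40 had no read, which allows a level of up to 1.26 CPM in replicate 1 and 0.676 CPM in replicate 2 (3 reads of the library's total, counting error only). Of the 5 genes that hold a pair of loci, Ankrd52 had 47 reads over both libraries at Mir6915 and 9 at Mir6914, and Skiv2l had 20 at Mir6971 and 6 at Mir6970. In Srebf1, Cmip and Arap3 no locus passed 6 reads.

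The following host genes were picked after the values were seen. Mir7055, in Slc17a7, the vesicular glutamate transporter gene of cortical excitatory neurons, had 5 reads in replicate 1 and 3 in replicate 2, far below Mir6982 in Camk2a. Loci without a read included Mir6983 in Csf1r, the receptor gene of microglia and macrophages, Mir7058 in the T cell adaptor gene Lat and Mir7076 in Ctrb1, the gene of a pancreatic protease. Mir6923, in the embryonic myosin gene Myh3, had none either, and neither did Mir7090 in Ctnnb1, the broadly expressed gene of beta-catenin. Host transcripts were not measured here, so no level of a locus was related to that of its host. Of the 12 loci that share a word of 20 bases with another transcript, 3 had no read: Mir7022, Mir7058 and Mir7065.

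Levels were set beside the features of the hairpins. Of the 98 loci above the median GC content, 41 (41.8%) had 10 or more reads, and of the 98 at or below it 25 (25.5%) did. Across the 196 loci, which share the 2 libraries and are not independent, Spearman's rho between GC content and log2(mean CPM + 1) was 0.25, and with hairpin length it was 0.03. The shares were also counted by layout, without a test. Of the loci filling a whole intron 5 of 15 (33.3%) had 10 or more reads, of those with a tail under 100 bases 17 of 42 (40.5%), and of those with a longer tail 43 of 127 (33.9%). The whole-intron group took 247 reads in replicate 1 and 782 in replicate 2, most of them at Mir7080 and Mir6944. None of the 9 loci that matched neither intron end had 10 reads.

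Each of 5 mouse mirtrons reported earlier had a higher mean level than any locus of the range. These were chosen from general knowledge with an earlier summary of these data known, so they do not stand for reported mirtrons in general. The list of 5 was Mir877 in Abcf1, Mir1224 in Vwa5b2, Mir702 in Plod3, Mir1981 in Marc2 and Mir3102 in Arhgef17. By position 4 of them filled a whole intron and Mir702 matched only the 3′ end. Mir877 had 680 reads in replicate 1 and 1601 in replicate 2, Mir1224 had 843 and 2894, and Mir702 had 244 and 1070. Mir1981 had 1183 and 2636 reads and Mir3102 had 771 and 1743. Even the lowest of these means, 172 CPM for Mir702, exceeded the highest of the range, 89.9 CPM for Mir7080. The 5 loci summed to 1902 ± 480 CPM (SD, n = 2), against 588 ± 131 CPM for all 196.

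The libraries were compared locus by locus with a two-sided exact binomial test given TMM-scaled library sizes. It was run on all 472 miRNA genes that had at least 10 reads over both libraries, and a Benjamini-Hochberg adjusted p under 0.05 was called. The test allows for counting noise alone and compares 2 libraries, not conditions. Of the 66 loci of the range that could be tested, 8 (12.1%) passed, all with a higher level in replicate 2, where over all genes 52.1% passed in either direction, 27.5% higher in replicate 2 and 24.6% higher in replicate 1. Calls were more frequent among loci with many reads, but in the range they did not rise at every step. From 10 to under 20 reads 2 of 24 loci of the range passed and 3 of 42 other genes. From 20 to under 50 reads 1 of 28 and 10 of 43 passed, and from 50 to under 100 reads 1 of 8 and 10 of 35. From 100 to under 1000 reads 4 of 6 and 50 of 106 passed. edgeR's exact test called 0 of the 66 and 0.424% of all genes. At an unadjusted p under 0.05 it called 1 of the 66, against 10 in the binomial test. It allows for the spread between the libraries through a common dispersion estimated from both libraries as one group. The differences under test enter that dispersion, so these low counts cannot show that the libraries are alike.

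The 4 loci with the most reads among those that passed were Mir7080, Mir7047, Mir6944 and Mir7066. Mir7080 had a log2 ratio of replicate 1 to replicate 2 of -0.72 ± 0.13 (counting SE; exact binomial, adjusted p = 4.28e-08). Mir7047 had -0.95 ± 0.15 (exact binomial, adjusted p = 6.43e-11), Mir6944 -0.77 ± 0.20 (exact binomial, adjusted p = 0.000136) and Mir7066 -0.77 ± 0.33 (exact binomial, adjusted p = 0.0293). The other 4 rested on few reads in replicate 1. They were Mir6953 with 8 reads there against 43, Mir7069 with 6 against 35, Mir6936 with 1 against 16 and Mir7062 with none against 10. Their exact binomial adjusted p-values ranged from 0.0100 (Mir6953) to 0.0368 (Mir7062). For Mir7062 the level in replicate 2 was at least 1.79-fold higher, with 3 reads taken as the limit in replicate 1. Mir6982, higher in replicate 1 by 0.55 ± 0.26, missed the threshold in the exact binomial test (adjusted p = 0.0761) but passed it with RLE size factors, under which 6 loci of the range were higher in replicate 2.

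The log2 ratio was below 0 at 47 of the 66 loci (71.2%), with a median of -0.25. Over all 472 genes it was below 0 at 251 (53.2%), with a median of -0.07. The shift was not particular to the range. Of the 41 other Mir loci at an intron 3′ end, 22 could be tested, and 16 (72.7%) had a ratio below 0, with a median of -0.33. The binomial test called 8 of these 22, 7 of them higher in replicate 2. The 22 include the 5 reported mirtrons given below, so those are not a further set. Of 37 other late-numbered loci tested, 21 (56.8%) had a ratio below 0 and 4 (10.8%) were called, all higher in replicate 2. Of the 58 loci of the range that did not pass, 39 had a ratio below 0. With Mir7062 at its bound the median was the same. The 5 reported mirtrons all passed with a higher level in replicate 2, from Mir1981 at -0.23 to Mir702 at -1.21. GC content moved with the ratio in the other genes too. Among the other genes the median ratio was 0.35 below 45% GC and -0.21 at 60% or more, and 32 of the 66 loci of the range lay in the latter band, with a median of -0.30. Spearman's rho between GC content and the ratio was -0.24 over the 66 loci and -0.28 over the 406 other genes, all from the same 2 libraries. The part of GC content in the difference was not tested.

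**Figure D5:**
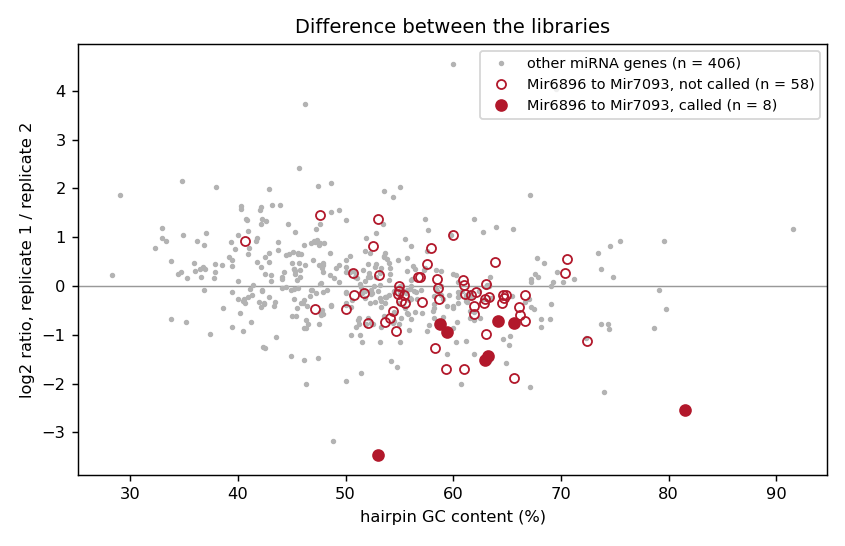
log2 ratio of replicate 1 to replicate 2 against hairpin GC content in percent, for the 472 miRNA genes with 10 or more reads. Filled red circles are the 8 loci of the range that passed the exact binomial test, all below 0; open circles are the other 58, and grey points are 406 other genes. Mir7062, the lowest point, has no read in replicate 1, so its ratio comes from the 0.5 reads added to each count.

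Other miRNAs were checked as markers of brain cell types and of outside tissues, none of which marks the cortex as a region. Of the markers checked, Mir132 and Mir128-1 of neurons, Mir29a of astrocytes, Mir338 and Mir219a-2 of oligodendrocytes and Mir126a of endothelium had mean levels from 1659 CPM for Mir219a-2 to 56498 CPM for Mir132, while Mir124a-1, a multi-copy neuronal locus, had only 2 and 4 reads. Mir122 of liver had 139 and 337 reads, a mean of 67.2 ± 12.4 CPM (SD, n = 2). By mean it lay above every locus of the range except Mir7080 and Mir7047. Mir206 of muscle had 34 and 84 reads (16.6 ± 3.29 CPM), a mean above that of Mir7066. Mir208a of muscle had 1 and 3 reads (0.548 ± 0.181 CPM).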

How the data were processed

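Small RNA under 30 nt of 2 libraries from 1 group was analysed. The authors deposited raw counts of reads for each miRNA gene, and the deposited notes name mm10 and GENCODE M21. No aligner or trimming step is named in the sources used here. The 4 leading lines that name no gene entered no total. Multimapping reads, 35.6% and 44.8% of all reads in replicates 1 and 2, stand under no gene. Signal tracks were not analysed here. Reads on the gene's strand were scaled to CPM.

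Hosts and introns came from GENCODE M21, hairpin and arm sequences from RefSeq, and folding energies from RNAfold 2.7.2. TMM factors (edgeR 4.0.16, R 4.3.3), over genes with 10 or more reads, were 0.990 and 1.01. Ratios add 0.5 reads to each count. The binomial test (Python 3.11.15, scipy 1.17.1) was run on simulated data with counting noise only. The test assumes such noise, so that run cannot show how it behaves with the further spread between these libraries. Alternatives covered strand, read minimum, scaling, test, end tolerance, word length and pseudocount. Named are the 30 loci with the most reads, loci that passed the test, loci without a read that share a word, and the reported mirtrons; others were named for their position, seed or host after their values were seen. The members, lists and rules were chosen with earlier results of these data known. The host gene and sequence of 1 locus are not reported here.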

Additional observations from a re-analysis of the deposited data

How the results depend on the processing

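The count of loci with a read (156) stayed within 1.5-fold with both strands counted, at 3 reads, with a read asked in each library and in each library alone (123 to 144). The count with 10 or more reads, 66, was 106 at a minimum of 5 reads and 42 at 20, and 24 to 55 in a single library. The summed level was 197 CPM when all reads served as the total, and 495 to 681 CPM in a single library. The exact binomial calls numbered 6 to 9 higher in replicate 2 under RLE factors, library totals, other read minimums and both strands. Calls by edgeR's exact test, whose dispersion takes in the differences tested, numbered 0. With a minimum of 1 read, 3 loci of under 10 reads passed as higher in replicate 1. Whole-intron loci numbered 14 to 17 at tolerances of 0 and 10 bases. Loci sharing a word numbered 93 at 18 bases and 3 at 22, against 12 at 20 bases. Pseudocounts of 0.5 and 2 CPM moved the log levels of the top 30 loci by at most 0.28. Of these 60 values, 18 moved by more than the SD of the locus between the libraries. Tolerances for the intron 3′ end alone were added after seeing the data. No paired analysis was possible because there is 1 group, and no library can be left out of a comparison of 2 libraries. Depth limits all statements on loci with fewer than 10 reads.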
